A study of Mus musculus with 11 samples.

Results

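The microRNAs (miRNAs) mmu-miR-132 and mmu-miR-212 were followed across 8 normal mammary glands and 3 mammary tumors of mice. They were found by name among the spots that the array's deposited value table lists for mouse miRNAs, and they made up 2 of 334 mouse miRNAs and 8 of 1336 mouse spots, 4 spots each. The glands came from normal females late in pregnancy, from the strains FVB (n = 2), Balb/C (n = 3) and FVB129B6 (n = 3), with no transgene or treatment named for them. The tumors (n = 3) were primary C3(1)/Tag tumors in female FVB mice, in which the C3(1) promoter drives the SV40 large T and small t antigens, mainly in ducts of the mammary gland and weakly elsewhere. The strain comparison asked whether background strain alone changes miRNA levels, and the tumor comparison set the tumors against normal tissue of the same strain and of all 3 strains. The labels give the arrays as replicates without saying that each came from its own animal, and the titles of Balb/C replicates 2 and 3 could stand for a pair of glands of 1 mouse, so that p-values measure the spread between these samples, which may be partly technical. Ages were not given in the sources used here.

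A miRNA lowers the output of messenger RNAs that pair with its seed, bases 2 to 8 counted from its 5′ end. miR-132 and miR-212 are processed from a common primary transcript whose transcription answers to CREB, and they are best known from neurons, where activity induces them and where miR-132 promotes the growth of dendrites. In the mammary gland they are known from knockout mice: 1 deletion of the pair was reported to stop the outgrowth of ducts through a need for the pair in the stroma, and a separate deletion was reported to leave the gland normal. The samples here were whole tissue, in which fewer cells of a type and less RNA per cell cannot be told apart, and in which stroma and epithelium were not separated.

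The sequences of both arms of both hairpins are shown because the seed is what the pair shares and the rest is what lets the array separate them. They are those of RefSeq on build GRCm38.p6, with the seed in capitals.

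mmu-miR-132-3p: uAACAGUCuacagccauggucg

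mmu-miR-212-3p: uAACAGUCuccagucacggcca

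mmu-miR-132-5p: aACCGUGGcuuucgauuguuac

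mmu-miR-212-5p: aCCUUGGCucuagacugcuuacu

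Both genes are noncoding miRNA genes on the plus strand of chromosome 11. The hairpin of Mir212 lies at chr11:75173388-75173478 and that of Mir132 at chr11:75173682-75173747, with 203 bases between them. The 3p arms had the same seed, AACAGUC, and were identical at 17 of 22 positions, with an unbroken identical run from base 1 to base 9. Of 1679 mature mouse miRNAs in the RefSeq table, these 2 were the only ones with this seed, and of the 334 mouse miRNAs on the array only these 2 had a probe that holds its complement. The 5p arms had different seeds from the 3p arms and from each other. The probe named mmu-miR-132 was complementary to all 22 bases of miR-132-3p and that named mmu-miR-212 to bases 1 to 21 of miR-212-3p, so that the values below belong to the 3p arms. The longest run over which either probe could pair with the other member was 9 bases, and signal passing between the probes was not tested.

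The level of a miRNA is the mean over its spots of log2 processed green signal minus the median over all mouse spots of the same array, so that a level of 0 is the array's median spot. All 4 spots of each member were well above background, as the scanner's extraction program calls it, on all 8 gland arrays. The signals were nevertheless low. After background subtraction, the lowest mean of the 2 members on a gland array stood 4.05 to 10.2 SDs (of 77 negative control spots on the same array) above 0. Each member ranked between the 38.3 and 52.4 percentiles of the 334 miRNAs on the gland arrays. On the 3 tumor arrays, none of the 12 spots of either member was well above background.

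In the FVB glands, miR-132 had levels of 0.31 and -0.58. In the Balb/C glands its levels were -1.12, -0.72 and -1.23, and in the FVB129B6 glands -1.58, -1.40 and -1.26. The FVB values lay above all others and the FVB129B6 values below all others, but the 2 FVB arrays were as far from each other as the FVB mean was from the Balb/C mean. The group means were -0.13 ± 0.63 (SD, n = 2) for FVB, -1.02 ± 0.27 (SD, n = 3) for Balb/C and -1.41 ± 0.16 (SD, n = 3) for FVB129B6.

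In the FVB glands, miR-212 had levels of -0.50 and -0.15. In the Balb/C glands its levels were -1.18, -1.08 and -1.43, and in the FVB129B6 glands -1.60, -1.46 and -1.48. The 3 strains fell in the same order as for miR-132, again without overlap, and the arrays of a strain lay closer together. The group means were -0.33 ± 0.25 (SD, n = 2) for FVB, -1.23 ± 0.18 (SD, n = 3) for Balb/C and -1.52 ± 0.08 (SD, n = 3) for FVB129B6.

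**Figure D1:**
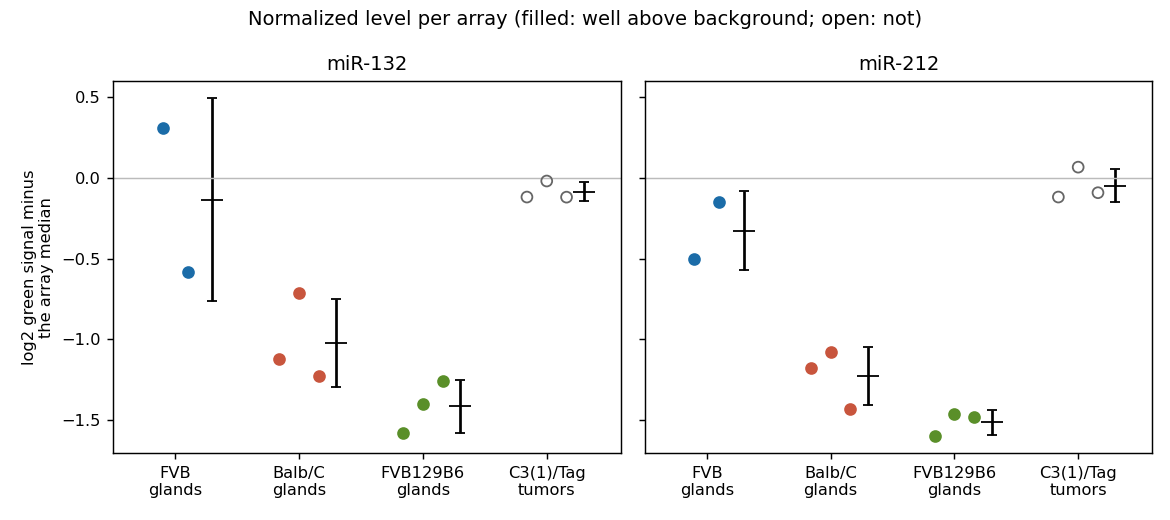
Level of miR-132 (left) and miR-212 (right) on each array, as log2 green signal minus the array median, by group; points are arrays, and the bar beside them is the group mean with its SD. On this scale the FVB glands sit above the Balb/C and FVB129B6 glands for both members, and the open points of the 3 tumors mark signals that were not well above background.

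The strain differences were tested with limma over 261 of the 334 miRNAs, those with signal well above background on 3 or more gland arrays, with Benjamini-Hochberg adjustment over all 261. On the median-centred scale the test called both members lower in each of the other strains than in FVB, and without normalization of the arrays the sign of all 4 differences turned. In Balb/C, miR-132 was lower by a log2 difference of -0.89 ± 0.29 (SE), or 1.85-fold, with a limma adjusted p of 0.0467. miR-212 was lower there by -0.90 ± 0.19, or 1.87-fold, with a limma adjusted p of 0.0103. In FVB129B6, the log2 difference was -1.28 ± 0.29 (2.43-fold, limma adjusted p = 0.0112) for miR-132. For miR-212 it was -1.19 ± 0.19 (2.28-fold, limma adjusted p = 0.00363). Across the 3 strains the limma F-test gave adjusted p = 0.0257 for miR-132 and 0.00626 for miR-212.

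Such calls were common. Of the 261 miRNAs, 37.9% were called between Balb/C and FVB (32.2% called lower in Balb/C), 39.5% between FVB129B6 and FVB (31.4% called lower in FVB129B6) and 46% by the F-test. Arrays of Balb/C and FVB did not overlap for 58.2% of miRNAs, and those of FVB129B6 and FVB for 64.4%. Most differences were negative on this scale: the median difference over all 261 miRNAs was -0.48 for Balb/C minus FVB and -0.39 for FVB129B6 minus FVB. The shift was not the same for all miRNAs, and the stromal list described below had medians of -0.14 and -0.22. With the 75th percentile in place of the array median, the medians over all 261 were -0.05 and -0.03. Measured from the median over all 261 miRNAs, the differences were -0.41 for miR-132 and -0.42 for miR-212 in Balb/C, and -0.89 and -0.80 in FVB129B6. In Balb/C, 26.8% and 26.4% of miRNAs had a lower difference than miR-132 and miR-212, and in FVB129B6 12.3% and 14.6% did. For miR-132 these values rested on single FVB arrays: in FVB129B6 the difference from the median was -0.37 without FVB replicate 1 (31.1% of miRNAs lower) and -1.41 without FVB replicate 2 (7.31% lower), and in Balb/C it was 0.02 and -0.97.

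The signals before scaling were ordered differently. For FVB the array medians of intensity were 188.5 and 245.5, for Balb/C they ran from 508 to 583 and for FVB129B6 from 520.5 to 671.5. The mean green intensity of miR-132 was 305.5 and 130 in FVB, 268.2, 310 and 243.2 in Balb/C, and 180.8, 254.2 and 226.2 in FVB129B6. That of miR-212 was 174.2 and 172.2 in FVB, 249.2, 241.5 and 208.8 in Balb/C, and 172.5, 246 and 192.2 in FVB129B6. Before scaling, the FVB arrays were thus not above the others: those of miR-132 overlapped with both other strains, and those of miR-212 overlapped with FVB129B6 and lay below Balb/C. The FVB arrays also occupied a column of the slide that held no other strain, so that strain and column cannot be told apart.

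**Figure D2:**
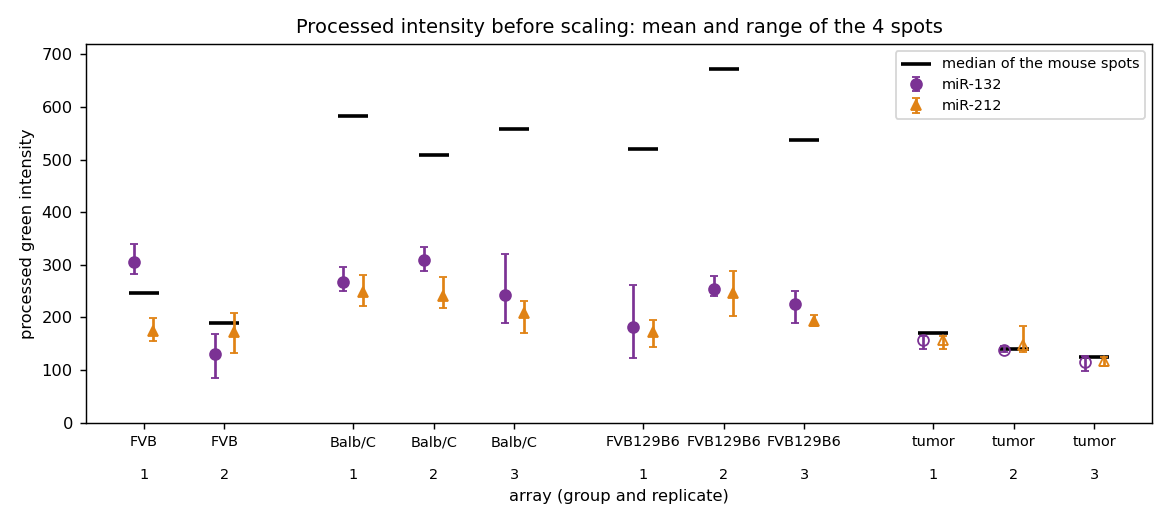
Processed green intensity before scaling on each array: points are the mean of the 4 spots of each member with bars from the lowest to the highest spot, filled where well above background, and the black dash is the median of the array's mouse spots. The members of the pair stayed between 130 and 310 on all gland arrays, while the median dash was 188.5 and 245.5 on the FVB arrays and at least 508 on the other glands.

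Other scalings kept the direction and changed the size. With the 75th percentile in place of the median, the Balb/C minus FVB difference was -0.46 for miR-132 (limma adjusted p = 0.290) and -0.47 for miR-212 (0.0700). In FVB129B6 it was -0.91 for miR-132 (limma adjusted p = 0.0522) and -0.82 for miR-212 (0.0114). The reading for FVB129B6 was steadiest for miR-212, which kept its call in every alternative tried except the absence of normalization. Without normalization the differences were 0.46 and 0.45 in Balb/C and 0.13 and 0.22 in FVB129B6, for miR-132 and miR-212, and none was called. The call for miR-132 in Balb/C was the weakest. It was lost in 12 alternatives that kept its sign, among them the one without FVB replicate 1, the array with the level of 0.31. There the difference was -0.44 (limma adjusted p = 0.231) against a median of -0.46 over all miRNAs tested.

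**Figure D3:**
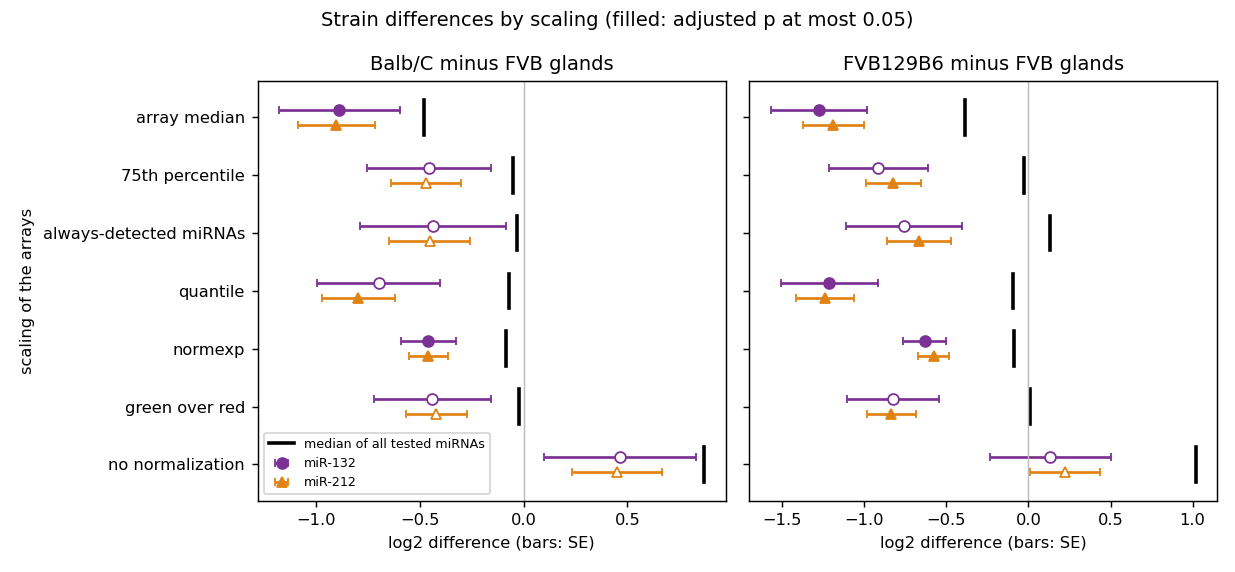
Log2 difference with its SE for miR-132 (circles) and miR-212 (triangles) under 7 scalings, for Balb/C minus FVB (left) and FVB129B6 minus FVB (right), filled where the adjusted p was at most 0.05; the black line is the median difference of all tested miRNAs. Both members lie below that median in all 7 scalings, and they lie above 0 only without normalization.

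Between Balb/C and FVB129B6 glands, whose array medians overlapped, neither member passed the test. miR-132 was 0.39 ± 0.26 (SE) higher in Balb/C, with a 95% interval from -0.22 to 1.00 and a limma adjusted p of 0.447. For miR-212 the difference was 0.29 ± 0.17, with an interval from -0.10 to 0.67 and a limma adjusted p of 0.367. Of all 261 miRNAs, 3.45% were called in this comparison, and 31.4% had arrays of the 2 strains that did not overlap, as both members did. On the median-centred scale the strains were thus in the order FVB, Balb/C and FVB129B6 for both members, from highest to lowest. Without normalization FVB had the lowest mean for both. The neighbours Balb/C and FVB129B6 did not differ beyond their error.

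Because a constant taken from an array's log2 values moves both members alike, as scaling on the median or the 75th percentile does and quantile normalization, normexp and green over red do not, the difference of miR-132 minus miR-212 within an array was compared between groups as a measure of unequal change. In FVB it was 0.81 and -0.43, in Balb/C 0.05, 0.36 and 0.20, and in FVB129B6 0.02, 0.06 and 0.23. The FVB arrays lay on either side of all others, and the group means were 0.19 ± 0.88 (SD, n = 2), 0.21 ± 0.16 (SD, n = 3) and 0.10 ± 0.11 (SD, n = 3). An exact permutation test over all 560 relabelings of the strains gave p = 0.875, where the smallest p it can give is 0.00357. That p rested on both FVB arrays, which lay on opposite sides of the other strains: without FVB replicate 1 or without FVB replicate 2 the exact permutation p was 0.0714. An unequal change of the 2 members between strains was not detected.

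The members were not each other's closest match over the 8 glands. Likeness was measured as the root mean square (RMS) difference between 2 profiles, each centred on its own mean, where 0 is an identical profile and a constant added to an array has no effect. The nearest of 260 miRNAs to miR-132 were miR-700 (RMS difference 0.183), miR-22 (0.203) and let-7g (0.218), and miR-212 was 26th (0.328, with a median of 0.592 over all). The nearest to miR-212 were miR-546 (0.113), miR-185 (0.120) and miR-151 (0.130), and miR-132 was 63rd (0.328, with a median of 0.510). As a description over 8 arrays, the profile of each member was followed more closely by miRNAs from other loci than by its cluster partner. The distance between the members came mostly from the 2 FVB arrays. There miR-132 minus miR-212 was 0.81 and -0.43, against 0.02 to 0.36 on the other glands.

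Other miRNAs that mark cell types differed between the strains too. The miRNAs of skeletal muscle moved the other way from the pair: 3 of the 3 measured were called higher in Balb/C and in FVB129B6 than in FVB, with median differences of 5.32 and 4.15. Of all 261 miRNAs, 15 were called higher in Balb/C and 21 in FVB129B6. miR-206, a skeletal muscle miRNA, was higher by 5.40 and 4.82 and miR-1, of skeletal and heart muscle, by 5.32 and 4.15. The mean level of these 3 on an array ran from 1.12 to 3.23 in FVB, from 6.73 to 7.61 in Balb/C and from 6.21 to 6.44 in FVB129B6. Muscle miRNAs thus moved with strain, and their part in the differences of miR-132 and miR-212 was not tested.

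The stromal and mesenchymal list, which holds miR-143 and miR-145 of smooth muscle and fibroblasts and miR-199a and miR-214 of mesenchyme, had all 8 measured members well above background on every gland array. By limma none of the 8 was called between Balb/C and FVB or between FVB129B6 and FVB (2 in each comparison at an unadjusted p under 0.05), with median differences of -0.14 and -0.22, nearer to 0 than the medians of -0.48 and -0.39 over all miRNAs. The shares called over all 261 miRNAs were 37.9% and 39.5%. The mean stromal level per array was 5.80 to 6.18 in FVB, 5.58 to 5.91 in Balb/C and 5.60 to 5.87 in FVB129B6. The list depended on the scaling: without normalization all 8 were called, in either direction, in each of the 2 comparisons, and with normexp background correction 5 were. Without FVB replicate 1, 3 were called in Balb/C and 2 in FVB129B6.

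Of the neuronal list, 9 of 11 measured miRNAs were tested. In Balb/C 4 were called lower than in FVB and 1 higher, with a median of -0.43, and in FVB129B6 4 were called lower and none higher, with a median of -0.33, close to the medians over all miRNAs. Those with the largest differences were miR-129-5p (-1.81) and miR-138 (-1.67) in Balb/C and miR-124a (-1.43) and miR-129-5p (-1.36) in FVB129B6. The mean level of the neuronal list lay between -1.61 and -0.71 over the glands. Of all 261 miRNAs, 32.2% were called lower in Balb/C and 31.4% in FVB129B6.

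Of the epithelial list, the miR-200 family with miR-203 and miR-205, 7 of 7 were well above background on every gland array, 2 were called lower in Balb/C (miR-200c by -1.29 and miR-203 by -0.99) and none in FVB129B6 (0 at an unadjusted p under 0.05). The count in Balb/C moved by over 1.5 times in 18 of 28 alternatives. Of 7 blood and lymphoid miRNAs, 1 was called lower in Balb/C and 3 in FVB129B6, among them the erythroid miRNAs miR-451 (-1.38 and -2.58) and, in FVB129B6, miR-486 (-1.84). Beside these counts and those of the epithelial list, 32.2% of all 261 miRNAs were called lower in Balb/C and 31.4% in FVB129B6. The only endothelial miRNA measured, miR-126-5p, was called in neither comparison, also at an unadjusted p under 0.05. Its gland levels were low, from -4.13 to -1.76, and it was not above background on every FVB or Balb/C array. In each comparison 3 of 28 alternatives called it, among them normexp. The part of these cell types in the differences of the pair was not tested.

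In the C3(1)/Tag tumors, miR-132 had normalized values of -0.12, -0.02 and -0.12 and miR-212 of -0.12, 0.07 and -0.09. These values are bounds and not measured levels. All 12 tumor spots of miR-132 and 10 of 12 of miR-212 carried a surrogate, a small value that the program writes in place of a signal too near to background, and 10 and 7 of the spots were at or below 0 after background subtraction. The mean intensities were 115.7 to 157 for miR-132 and 117.5 to 157 for miR-212, beside array medians of 125 to 170. Only 15 to 64 of the 334 miRNAs were well above background on a tumor array, against 209 to 262 on a gland array.

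The fit over all 11 arrays put the tumors above the mean of the 3 strains by 0.77 ± 0.21 (SE) for miR-132 (limma adjusted p = 0.0047) and by 0.98 ± 0.15 for miR-212 (limma adjusted p = 9.96e-05). Both differences turned negative with quantile normalization and without normalization, and both were called there too. In the median-centred fit, the differences against FVB glands alone were 0.05 ± 0.28 (limma adjusted p = 0.870) and 0.28 ± 0.20 (limma adjusted p = 0.211). With quantile normalization those against FVB were called lower, at -1.39 and -1.18. Of all 261 miRNAs, 90.4% were called between the tumors and the 3 strains and 88.1% between the tumors and FVB. Since the tumor side is a bound, no direction can be read from these values. No fold can be given either, because the dimmest miRNAs called above background on the tumor arrays, at a mean level of 1.80, were brighter than either member in any gland group.

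The within-array difference between the members was -8.2e-05, -0.09 and -0.03 in the tumors, near 0 on each array, with surrogates in all 12 spots of miR-132 and in 10 of 12 of miR-212. The tumors minus FVB difference of this measure was -0.23, but it was 0.39 without FVB replicate 1, -0.85 without FVB replicate 2 and 1.78 with green over red, so that no direction is given. Moreover, 3 arrays against 2 cannot give a permutation p under 0.10. All tumor arrays were on slide 1 and all gland arrays on slide 2, read with different versions of the extraction program, so that tissue, slide and program version cannot be told apart. Whether miR-132 and miR-212 were lower, equal or higher in these tumors than in the glands was not detectable on these arrays.

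The tumor arrays were also faint for the marker lists. Of the stromal list 1 to 4 of 8 miRNAs, of the epithelial list 1 to 4 of 7 and of the neuronal list none of 11 were well above background on a tumor array. Most differences between tumors and glands over these lists thus set a gland level against a bound, as for the pair, and only counts of calls are given. All 8 stromal and all 7 epithelial miRNAs were called lower in the tumors, both against the 3 strains and against FVB, and with quantile normalization 5 and 4 were called against the 3 strains. Of 7 blood miRNAs 5 were called lower in both comparisons. Of 3 skeletal muscle miRNAs 3 were called lower against the 3 strains, while against FVB, the strain with the lowest muscle levels, miR-1 was called lower and miR-206 higher. Of the 9 neuronal miRNAs tested 5 were called higher and 3 lower in both comparisons, and the endothelial miR-126-5p was called higher, although none of these was well above background on any tumor array. The share called over all miRNAs was 90.4% and 88.1%.

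The red channel, for which the labels name no dye or RNA, was compared with the green by its intensities alone. In every gland both members were brighter in red than in green, and in the tumors both channels were at the level of the background. The median over all mouse spots of a gland array was 527.5 to 1365 in red and 188.5 to 671.5 in green.

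**Figure D4:**
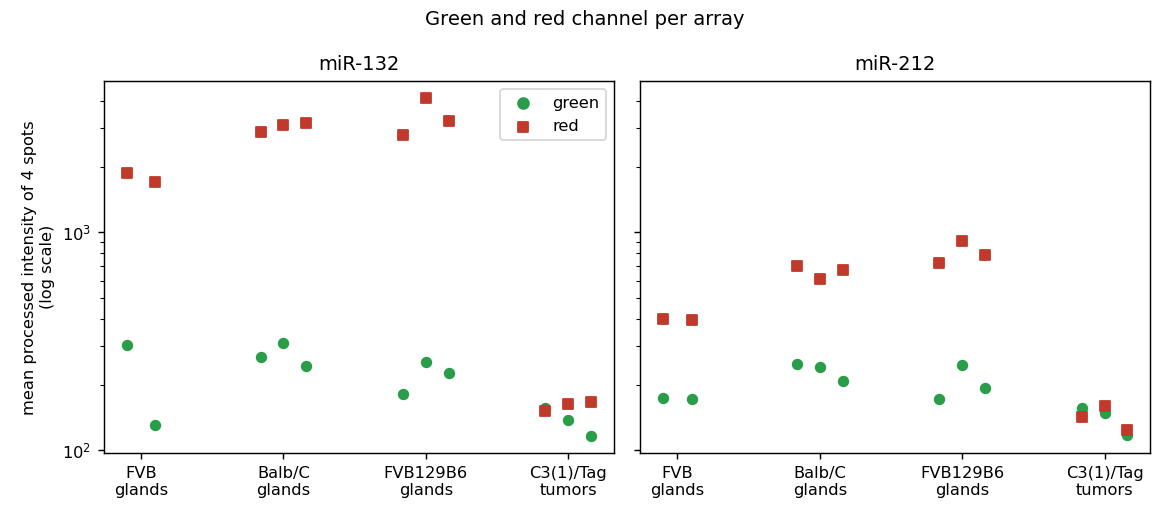
Mean processed intensity of the 4 spots of miR-132 (left) and miR-212 (right) on each array, on a log scale, in the green channel (circles) and the red channel (squares), by group. In all 8 glands the red signal lies above the green, from 1708 to 4132 for miR-132 and from 395 to 912.8 for miR-212, and in the tumors both channels lie between 115.7 and 166.1.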

How the data were processed

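Total RNA from 8 glands and 3 tumors was labelled with Hy3, as the labels state, and hybridized to custom Agilent arrays. The deposited scanner files hold the processed green intensity per spot, made by the authors with Feature Extraction 10.5.1.1 (glands, with an extended dynamic range) and 9.5.1.1 (tumors, without it). The authors' deposited log2 table was found to be log2 of that intensity minus a constant per array. From the intensities, log2 values were centred on the median of the 1336 mouse spots of each array and averaged over a miRNA's 4 spots, without outlier spots. A miRNA was taken as above background where at least 50% of its spots on the array were, and it was tested where 3 or more arrays met this. Tests used limma 3.58.1 in R 4.3.3 (lmFit and eBayes), Benjamini-Hochberg adjustment and a threshold of 0.05: strains over 8 gland arrays, tumors over 11 arrays in 4 groups. The fits and the permutation test were tested on simulated data. No green mouse spot was saturated (0 spots). The number of arrays and the signal over background limit the precision.

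Replicate numbers were not taken as pairs. Same-numbered arrays had deviations with correlations from -0.277 to 0.422 (mean 0.0386 over 7 pairs). For arrays with different numbers they ran from -0.515 to 0.277 (mean -0.0193 over 14 pairs). With 2 or 3 arrays per strain, these values cannot exclude a pairing. Named miRNAs are the 2 members, the 3 nearest to each over the glands, and at most 2 called miRNAs per marker list and comparison, those with the largest differences. The members and lists were chosen with earlier results of these data known. Sequences are those of RefSeq (GRCm38.p6), in which both members' hairpins and arms were found. The alternatives covered scaling, background correction, filters, outlier spots, blocks and leaving out each array.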

Additional observations from a re-analysis of the deposited data

Results flagged for a closer look

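The red channel carried a signal for both members although the labels name only the green dye, Hy3, and do not say what the red channel held. For miR-132 all 4 red spots were well above background on 8 of 8 gland arrays, with a mean red intensity of 1708 on the lowest gland array and 4132 on the highest, 6.13 to 16.3 times the green intensity. Its red-to-green ratio ranked between 15th and 35th of the 261 miRNAs tested. For miR-212 the red channel was above background on 8 of 8 gland arrays as well, with mean intensities of 395 on the lowest gland array and 912.8 on the highest, 2.29 to 4.19 times the green, and ranked between 36th and 79th. In the tumors the red means were 150.8 to 166.1 for miR-132 and 124 to 159 for miR-212, with no red spot well above background. Among the glands, the red intensities of both members were lowest on the 2 FVB arrays. Red signal above background was common there: 285 to 296 of the 334 mouse miRNAs had it on a gland array. The red median over all mouse spots of a gland array was 527.5 to 1365. The red intensities of miR-132 lay above that range of medians, and those of miR-212 ran from below it into its lower part. The green-over-red setting rests on this channel, and no group was assigned to it.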

How the results depend on the processing

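Of 386 recomputed values, 334 counted as unchanged, 28 lost the call, 8 gained one, 15 turned their sign and 1 moved beyond the replicate SD. The classes exclude each other: a value that turned its sign counts only there, also where its call was lost or gained. Unchanged meant the same sign and call for a difference and the same call for the F-test and the permutation test. For tumors minus FVB of miR-132 over miR-212 it meant a shift within the SD of the FVB arrays. The turned sign without FVB replicate 1 (0.39) was thus counted as unchanged. Values that an alternative could not change, such as strain fits without a tumor array, were counted too. Without normalization, Balb/C minus FVB became 0.46 for miR-132 and 0.45 for miR-212, and FVB129B6 minus FVB 0.13 and 0.22, without a call. Tumors minus the 3 strains became -0.73 and -0.53, both called, and tumors minus FVB -0.53 and -0.30, neither called. The F-test's limma adjusted p was 0.475 and 0.212. With quantile normalization, tumors minus the 3 strains became -0.93 and -0.68 and tumors minus FVB -1.39 and -1.18, each called in that direction. Balb/C minus FVB became -0.70 for miR-132 (call lost). With the 75th percentile, miR-132 lost both calls against FVB (-0.46 and -0.91) and the F-test (limma adjusted p = 0.0975), and miR-212 lost Balb/C minus FVB (-0.47). Scaled on miRNAs above background on all arrays, Balb/C minus FVB was -0.44 and -0.45 and FVB129B6 minus FVB -0.76 for miR-132, all without a call, and the F-test gave limma adjusted p = 0.250 and 0.0775. With green over red, Balb/C minus FVB was -0.44 and -0.42 and FVB129B6 minus FVB -0.83 for miR-132, all without a call, the F-test gave 0.134 for miR-132 (limma adjusted p), and the tumors minus FVB value of miR-132 over miR-212 was 1.78. Tumors minus FVB was called higher at 3.29 and 3.52 (75th percentile) and 3.01 and 3.24 (miRNAs always above background). It was also called higher at 1.93 and 2.12 (floor) and 2.68 and 0.90 (green over red), and lower with quantile normalization. For miR-132 it was -0.039 with normexp and -0.0027 with the array row as a block, without a call. With the 2 Balb/C arrays averaged, Balb/C minus FVB was -0.91 for miR-132 (limma adjusted p = 0.0573).

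With the replicate block, Balb/C minus FVB for miR-132 was -0.88 (limma adjusted p = 0.111) and its F-test had limma adjusted p = 0.0738; the replicate block changed no other call. By the labels the arrays share only a number, so the block was not read as a weaker effect.

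Leaving out each array in turn, miR-132 ran from -1.33 to -0.44 in Balb/C minus FVB (call kept in 5 of 11) and from -0.40 to 0.49 in tumors minus FVB, both ends being the fits without 1 FVB array; its F-test ran from limma adjusted p 0.0152 to 0.0724. In FVB129B6 minus FVB, miR-132 ran from -1.73 to -0.83, again between the fits without 1 FVB array. It stayed called without any 1 of the Balb/C or FVB129B6 arrays. For miR-132 over miR-212, the exact permutation p between strains ran from 0.0714 (without either FVB array) to 0.962, and tumors minus FVB from -0.85 to 0.39. For miR-212, Balb/C minus FVB ran from -1.08 to -0.73 and stayed called without any 1 of the Balb/C or FVB129B6 arrays. Requiring signal above background on every array left neither member testable against the tumors. Counts of called miRNAs ranged from 47 to 178 in Balb/C minus FVB (99 in the report), from 39 to 191 in FVB129B6 minus FVB (103), from 0 to 17 between Balb/C and FVB129B6 (9), from 60 to 195 in the F-test (120), and from 13 to 311 in tumors minus the 3 strains (236) and 12 to 305 in tumors minus FVB (230), highest without a filter in all but the third. Of 504 recomputed list counts, 66 moved by over 1.5 times. The causes were not tested.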
